A study of Mus musculus with 30 samples.

Results

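The 7 genes Timeless, Map4, Syncrip, Rbms1, Gltp, Entpd1 and Thap11 are described here, which the study lists as altered in the same direction in mice null for cyclooxygenase (COX)-1 and in mice null for COX-2. The series measured RNA of hippocampus and cerebral cortex on nylon cDNA arrays, 30 arrays in 10 groups of 3. The groups were COX-1-/- mice and COX-1 wild-type (WT) mice, and COX-2-/- mice, COX-2 heterozygous (HET) mice and COX-2 WT mice, each in both regions. All mice were 12 weeks of age, had the same mixed background of 2 inbred strains, C57BL6/6 among them, and received no treatment other than the pentobarbital overdose before dissection. The null alleles were germline and present in every cell, the colonies of the lines were kept apart, and WT and null mice of a line came from different matings, so that mating and genotype cannot be told apart. The study's text does not describe the HET groups. It gives 3 mice a group and also hybridisation in triplicate, and the labels do not say which of these the 3 arrays of a group are. P values therefore measure the spread between arrays, which may be technical. In bulk tissue, fewer cells of a type and less RNA per cell cannot be told apart.

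The 7 genes, of 7151 gene symbols on the array, had 13 probes. Timeless and Map4 had 2 probes each, Syncrip and Rbms1 had 3 each, and Gltp, Entpd1 and Thap11 had 1 each. For 6 genes the probe that the study tabulated for both lines is on the array under that symbol and is called the lead probe. The probe tabulated for Map4 carries no such symbol in the annotation used and was not analysed here. Values are Z scores, the natural log intensity of a probe minus the mean of its array and divided by the SD of that array. Differences in Z cannot be read as fold changes, and a mean Z above 0 is the study's limit for signal over background. The table falls into a first and a second part of equal size, each standardised on its own. A unit is thus 1 SD of the probes of that part on the array. Of the 13 probes, 11 lie in the first part, where 5 of the 6 COX-1 cortex arrays hold the same values, so COX-1 cortex is given only for the 2 probes of the second part. Probes with the symbol Ptgs1 or Ptgs2, the genes that encode COX-1 and COX-2, number 0, and the deletions could not be checked on the arrays.

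Cyclooxygenases oxidise arachidonic acid to prostaglandin H2, from which prostaglandins and thromboxane are made. In the healthy brain COX-1 is known mainly from microglia, and COX-2 is made in excitatory neurons of hippocampus and cortex. The genes are not known as members of a shared pathway. Syncrip (hnRNP Q) binds mRNA and travels with transport granules in dendrites, and Rbms1 binds single-stranded DNA and AU-rich RNA. Timeless holds the replication fork together with Tipin and binds clock proteins. Thap11 (Ronin) is a zinc finger transcription factor that works with HCF-1 and is known from mouse embryonic stem cells. Map4 stabilises microtubules, Gltp moves glycolipids between membranes, and Entpd1 (CD39) splits extracellular ATP and ADP and sits on microglia and vessels.

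Promoters of the genes were read from RefSeq (build GRCm38.p6, 250 bases before to 50 bases after a start) to show what sequence the genes share. All 7 genes matched, with 10 promoters, and those of a pair of genes that were higher and of a pair that were lower in null mice are given, 5′ to 3′, with the motifs found in capitals. Syncrip lies at chr9:88482348-88482647 (minus strand), Timeless at chr10:128237816-128238115 (plus strand), Entpd1, at the first of its starts, at chr19:40612116-40612415 (plus strand) and Thap11 at chr8:105854853-105855152 (plus strand).
Syncrip: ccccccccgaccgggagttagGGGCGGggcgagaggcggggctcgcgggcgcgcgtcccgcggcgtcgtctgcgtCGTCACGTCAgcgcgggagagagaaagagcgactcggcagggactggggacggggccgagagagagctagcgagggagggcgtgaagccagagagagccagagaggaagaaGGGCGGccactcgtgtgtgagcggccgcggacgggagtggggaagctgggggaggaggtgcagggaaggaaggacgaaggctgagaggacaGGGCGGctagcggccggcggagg
Timeless: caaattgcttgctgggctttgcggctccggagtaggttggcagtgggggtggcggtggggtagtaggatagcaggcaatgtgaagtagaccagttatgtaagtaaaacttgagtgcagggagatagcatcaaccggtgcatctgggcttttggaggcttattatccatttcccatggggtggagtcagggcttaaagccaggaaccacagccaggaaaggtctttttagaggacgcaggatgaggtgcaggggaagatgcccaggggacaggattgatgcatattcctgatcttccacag
Entpd1: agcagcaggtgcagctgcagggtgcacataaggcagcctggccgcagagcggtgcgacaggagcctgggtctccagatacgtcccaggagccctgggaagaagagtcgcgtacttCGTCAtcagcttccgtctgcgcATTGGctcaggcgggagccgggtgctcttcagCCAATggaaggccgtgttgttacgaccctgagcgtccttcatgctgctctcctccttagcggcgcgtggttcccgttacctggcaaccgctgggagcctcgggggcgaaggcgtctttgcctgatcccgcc
Thap11: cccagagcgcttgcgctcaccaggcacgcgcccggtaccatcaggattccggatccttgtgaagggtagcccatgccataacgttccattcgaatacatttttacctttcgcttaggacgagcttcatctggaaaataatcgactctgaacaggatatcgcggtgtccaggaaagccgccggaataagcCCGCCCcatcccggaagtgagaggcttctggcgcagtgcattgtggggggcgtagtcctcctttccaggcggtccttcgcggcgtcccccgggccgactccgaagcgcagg
The 8 motifs were searched on both strands. The cyclic AMP response element TGACGTCA was in 0 of the 10 promoters, against 1.79% of all 32851 promoters of the table. Its core TGACG, which also lies inside it, was in 4 of 10, those of Syncrip, Map4 and both of Entpd1, against 20.8% of all. The GC box GGGCGG was in 6 of 10 (35.7% of all) and CCAAT in 5 of 10 (37.4% of all). In the sequences shown, Syncrip holds GC boxes that start at bases 22, 187 and 278, and the reverse of TGACG at bases 76 and 81. Entpd1 holds the reverse of TGACG at base 116, the reverse of CCAAT at base 138 and CCAAT at base 170, and Thap11 holds a reverse GC box at base 190. Timeless holds none of the 8. The E-box CACGTG (7.15% of all), TATAAA (13.6%), the THAP11 and ZNF143 core ACTACA (10.3%) and the NF-kappaB site (0.155%) were in 0 of 10, which says only that these letters are not in these windows. A match is a description of letters and not a site.

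The genes were chosen by the hippocampal differences between null and WT mice, which are given as a description, with no test. The study's rule takes a probe with a mean Z above 0 over the compared arrays. It also asks for a 2-sided Z test P under 0.05 and a z ratio beyond 1.5. The z ratio here sets the difference of a probe over the SD that the differences of all probes have. The study's methods name instead the SD of all genes on an array. With the SD of the differences the z ratios are those that the study tabulates for the leads, except for Gltp in the COX-2 line. In COX-1-/- mice 7 of the 12 member probes above background met it, against 4.8% of all probes above background. In COX-2-/- mice 6 of 12 met it, against 4.09%. Without 1 array these counts were 3 to 7 in either line, the lowest without COX-1-/- replicate 3 and without COX-2-/- replicate 3, and 4 in the COX-1 line without COX-1-/- replicate 2 or COX-1 WT replicate 3. As the rule used these contrasts, nothing is read from these shares. Of the cell type markers, Enpp6 was the only oligodendrocyte marker on the array. It had -0.0831 to 0.194 in COX-2-/- hippocampus, against 0.271 to 0.428 in COX-2 WT hippocampus (z ratio = -2.61). In the COX-1 line its arrays overlapped, with 0.231 to 0.456 in COX-1-/- and 0.198 to 0.548 in COX-1 WT hippocampus. The astrocyte marker Glul was higher in COX-2-/- hippocampus by the rule (z ratio = 2.07), while the summed Z of the 4 astrocyte probes above background was 2.62 to 2.93 in COX-2-/- and 2.59 to 2.84 in COX-2 WT hippocampus. Their part in the differences of the members was not tested. The leads of Timeless, Syncrip, Rbms1 and Gltp were higher in null mice of both lines, and those of Entpd1 and Thap11 were lower.

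Syncrip had Z scores of 0.279, 0.342 and 0.331 in COX-1-/- hippocampus, against 0.177, 0.163 and 0.0388 in COX-1 WT hippocampus (lead BG078482; z ratio = 1.67). It had 0.336, 0.303 and 0.496 in COX-2-/- hippocampus, against 0.0929, 0.215 and 0.251 in COX-2 WT hippocampus (z ratio = 1.84). Every null array lay above every WT array of its line. Over all member probes this held, or its reverse, for 8 of 12 in the COX-1 line, against 21.8% of all probes, and for 6 of 12 in the COX-2 line, against 17.1%. The choice of the genes favours such an order, so nothing is read from these shares either. Rbms1 had 0.551, 0.644 and 0.658 in COX-1-/- hippocampus, against 0.434, 0.437 and 0.459 in COX-1 WT hippocampus (lead BG065181; z ratio = 1.52). It had 0.581, 0.523 and 0.647 in COX-2-/- hippocampus, against 0.273, 0.493 and 0.328 in COX-2 WT hippocampus (z ratio = 2.09). The arrays did not overlap in either line, though the highest COX-2 WT array was near the lowest COX-2-/- array. Both genes encode RNA-binding proteins.

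Timeless, the replication fork and clock partner, had 0.265, 0.326 and 0.36 in COX-1-/- hippocampus, against 0.144, 0.103 and 0.0344 in COX-1 WT hippocampus (lead BG064631; z ratio = 1.95). It had 0.448, 0.383 and 0.36 in COX-2-/- hippocampus, against 0.187, 0.203 and 0.233 in COX-2 WT hippocampus (z ratio = 1.81). Null and WT arrays did not overlap, and the gap was wider than the spread within any of these groups. Thap11, the HCF-1 partner, had 0.0463, -0.0265 and 0.138 in COX-1-/- hippocampus, against 0.202, 0.288 and 0.303 in COX-1 WT hippocampus (BG081977; z ratio = -1.85). It had 0.0143, -0.0711 and -0.0573 in COX-2-/- hippocampus, against 0.216, 0.129 and 0.151 in COX-2 WT hippocampus (z ratio = -1.94). All null arrays were below all WT arrays, and COX-2-/- mice had a mean below the background limit.

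Gltp, the glycolipid carrier, had 0.115, 0.153 and 0.216 in COX-1-/- hippocampus, against -0.0549, -0.0946 and -0.142 in COX-1 WT hippocampus (BG079093; z ratio = 2.26). It had 0.132, 0.0805 and 0.149 in COX-2-/- hippocampus, against -0.0195, -0.0728 and 0.119 in COX-2 WT hippocampus, a z ratio of 1.06 that the rule does not take. For COX-2-/- hippocampus the study tabulates a z ratio of 2.02, which is that of COX-2 HET hippocampus set against WT mice here. The COX-2 values that it tabulates for the other leads are those of null against WT mice given here. The HET arrays thus appear to have entered the choice of Gltp for the COX-2 line. In the COX-2 line 1 WT array lay among the null arrays. Entpd1, the ectonucleotidase, had 0.145, -0.0162 and -0.0632 in COX-1-/- hippocampus, against 0.154, 0.223 and 0.319 in COX-1 WT hippocampus (BG064367; z ratio = -1.84). It had 0.106, -0.0848 and -0.0903 in COX-2-/- hippocampus, against 0.151, 0.237 and 0.151 in COX-2 WT hippocampus (z ratio = -1.94). In both lines 1 null array stood near the WT arrays and the other null arrays were below 0.

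**Figure D1:**
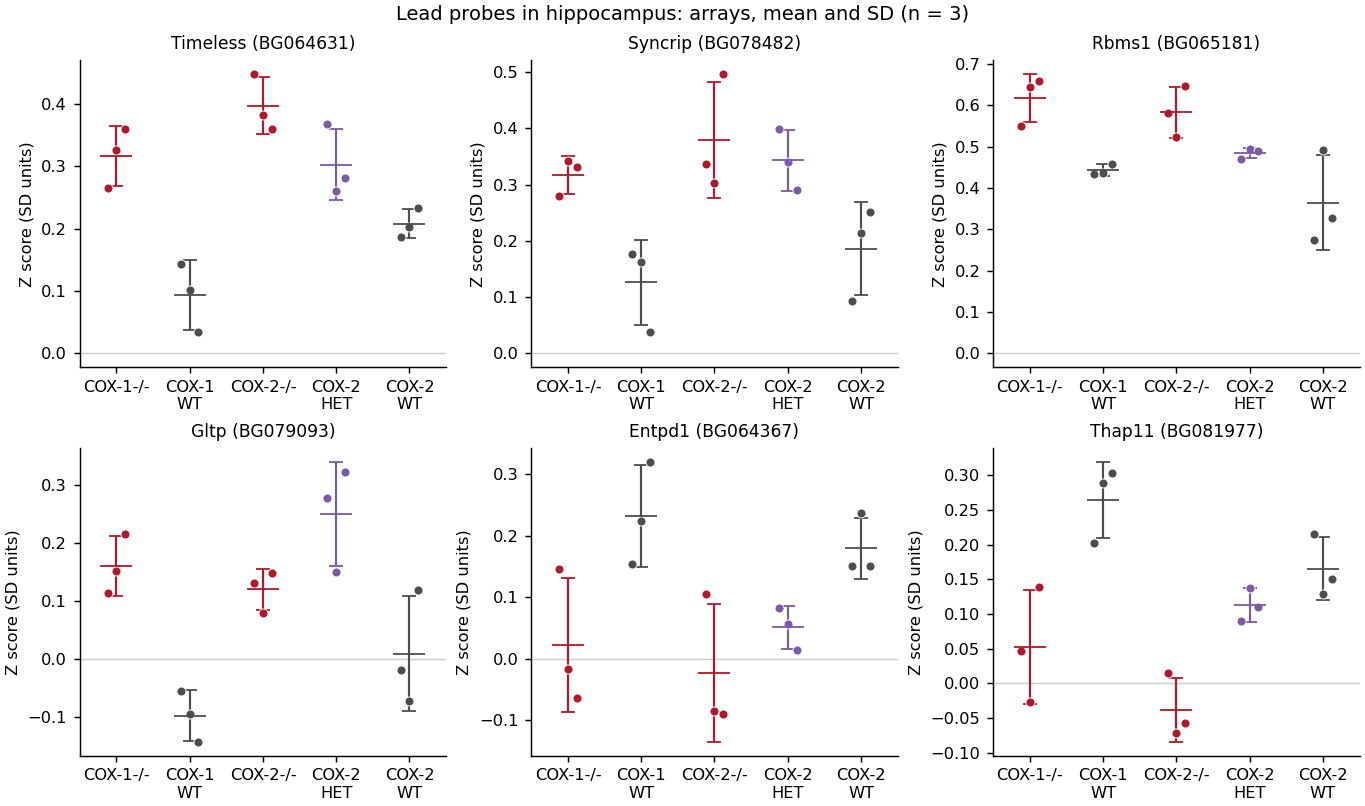
Z score of the 6 lead probes in hippocampus (y axis, SD units) for COX-1-/-, COX-1 WT, COX-2-/-, COX-2 HET and COX-2 WT mice, with points for arrays and dashes with bars for the mean ± SD of 3 arrays. Null arrays lie apart from the WT arrays of their line in every panel but that of Gltp in the COX-2 line, and for Gltp all HET arrays lie above the COX-2-/- and COX-2 WT arrays.

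Some members lay close to the threshold of the rule. The smallest z ratios of a member called in both lines were those of Rbms1 (1.52 in the COX-1 line and 2.09 in the COX-2 line) and Syncrip (1.67 and 1.84). Just outside were Spice1 (1.499 and 1.91) and Nap1l1 (-2.09 and -1.48). The other probes of the genes were mixed. The Rbms1 probe BG078470 was higher in COX-1-/- mice (0.376, 0.561 and 0.363, against 0.229, 0.144 and 0.1 in COX-1 WT mice, z ratio = 2.41) and in COX-2-/- mice (0.321, 0.288 and 0.494, against 0.164, 0.193 and 0.176 in COX-2 WT mice, z ratio = 1.81), and met the rule in both lines. The third Rbms1 probe, BG076919, had z ratios of 0.724 and 0.331 in the same order of lines. Of Syncrip, BG077814 had z ratios of 1.02 and 1.25 and AW547151 of 0.297 and 0.722. The second Timeless probe, BG074901, differed in sign between the lines, at 0.866 in the COX-1 line and -0.467 in the COX-2 line. Neither annotated Map4 probe met the rule, with z ratios of 0.246 and 1.12 for BG077742 and, below background, -0.984 and -0.335 for BG080878.

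Probes of one gene did not always move together. Over the 24 arrays other than those of COX-1 cortex, the probe pair with the highest correlation was BG065181 and BG078470 of Rbms1 (Pearson r = 0.792), followed by BG078482 and BG077814 of Syncrip (r = 0.698). The Timeless probes had r = 0.294 and the Map4 probes r = -0.142, and the remaining pairs had r between 0.161 and 0.307. All pairs share the arrays. The pairs with the highest r come from 1 part of the table and from places near each other in a block of its rows, as given below. The Map4 pair also comes from 1 part.

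Each part of the table consists of 16 blocks of rows of equal length. In the first part, differences of COX-2-/- minus WT hippocampus had a correlation across probes of 0.653 for rows 1 apart, -0.284 for rows 264 apart and 0.617 for rows 1 block apart. In COX-1-/- minus WT hippocampus these values were 0.536, -0.11 and 0.424, and in COX-2-/- minus WT cortex 0.442, -0.195 and 0.414. In the second part they were lower, at 0.37, -0.0769 and 0.308 for COX-2-/- hippocampus. What the rows are on the membrane is not given in the sources used here. The leads that were higher in null hippocampus lie at places 427 (Gltp), 447 (Syncrip), 490 (Timeless) and 513 (Rbms1) of a block, and those that were lower at places 40 (Thap11) and 137 (Entpd1). Among all 48 probes that met the rule in the same direction in both lines, 36 of the 38 higher ones lie at places over 264 of the first part and all 10 lower ones at places up to 264. Of first-part probes above background, 46.4% lie over 264. The Rbms1 probe BG078470 lies at place 469 of the same block as the Rbms1 lead, and Syncrip BG077814 lies at place 423.

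The 335 probes around each lead, those within 10 rows of the same place in all blocks of the first part, give the size of this pattern. Around Timeless their median difference was 0.118 in COX-2-/- hippocampus, against 0.189 for Timeless itself, and 91.9% of them had the sign of Timeless. Around Syncrip it was 0.109 (Syncrip 0.192), around Rbms1 0.106 (Rbms1 0.219) and around Gltp 0.118 (Gltp 0.111). Around Entpd1 it was -0.0909 (Entpd1 -0.203) and around Thap11 -0.106 (Thap11 -0.203). All 6 leads had the sign of their neighbours in COX-1-/- hippocampus, COX-2-/- hippocampus and COX-2-/- cortex. When the median of the place was subtracted on each array, a correction chosen after the data were seen, 0 member probes met the rule in COX-2-/- hippocampus, against 6 without it. In COX-1-/- hippocampus 3 met it, of Gltp, Thap11 and Rbms1 (BG078470), against 7. The number of all probes called in both lines was 25 with the correction, against 48. Of the member probes, 0 were called in both lines with the correction, against 6. The z ratios of the leads in COX-2-/- hippocampus were then 0.766 for Timeless, 0.929 for Syncrip, 1.15 for Rbms1, -1.34 for Entpd1, -1.37 for Thap11 and -0.512 for Gltp. Rbms1 BG078470, with a difference of 0.19 in COX-2-/- hippocampus and a median of 0.117 around it, then had a z ratio of 0.769. What part the place of a probe has in the null and WT differences was not tested.

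**Figure D2:**
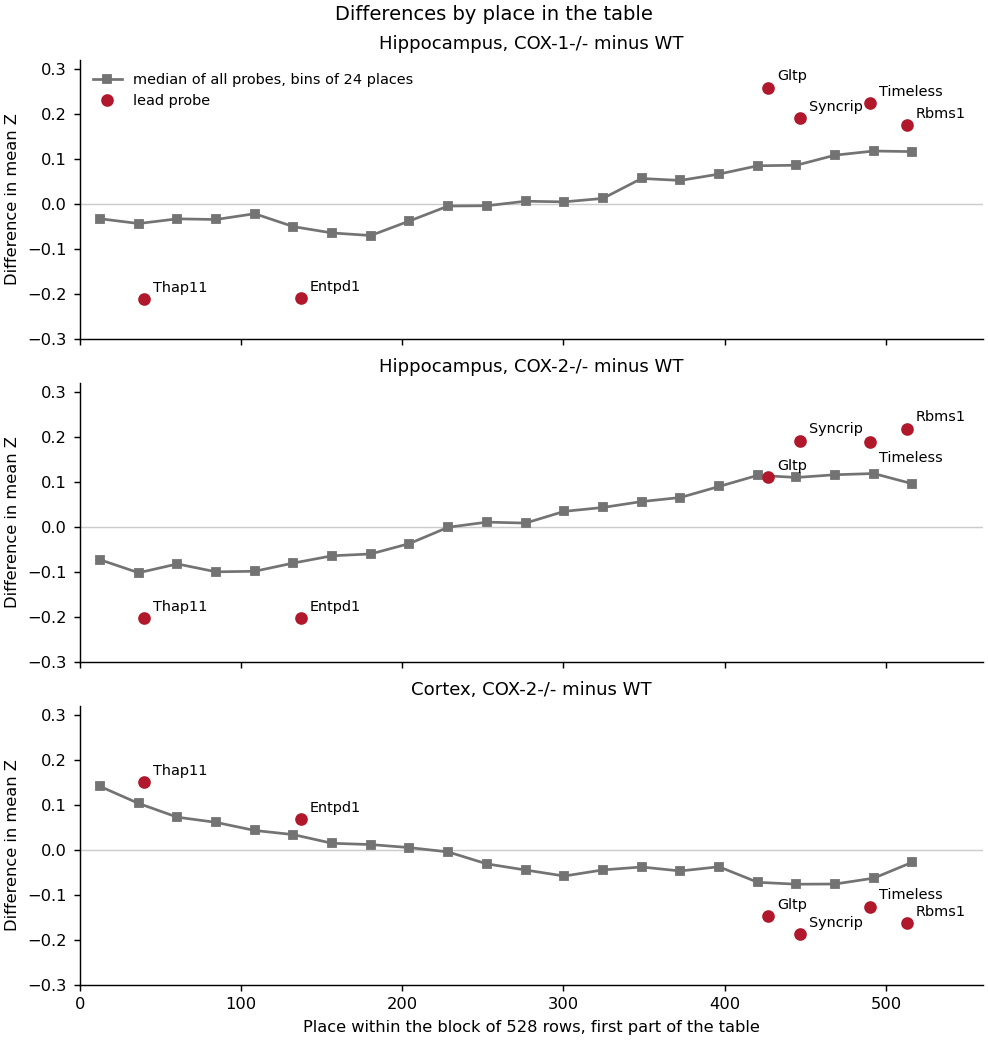
Difference in mean Z between null and WT mice (y axis, SD units) against the place of a probe within its block of rows in the first part of the table (x axis), with squares for the median of all probes in bins of 24 places and circles for the 6 lead probes. In each panel the leads lie on the same side of 0 as the probes around them, farther from 0 except for Gltp in COX-2-/- hippocampus.

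The HET groups took no part in the choice of the genes as the study's text describes it, though the HET arrays appear to have entered that of Gltp. Because a difference of HET from WT mice shares the WT arrays with the choice, the test set the HET mean against the midpoint of the COX-2-/- and COX-2 WT means, which is independent of the difference between them, in a limma model of the 15 hippocampal arrays with Benjamini-Hochberg adjustment over all probes above background. Of the 12 member probes, 1 passed at an adjusted p under 0.05, against 2.63% of all probes. At an unadjusted p under 0.05 there were 3, against 19.6% of all probes. Gltp was 1 of these 3, and its p is not read as a test, since the HET arrays appear to have entered its choice. The Syncrip probe BG077814 had 0.275, 0.299 and 0.403 in COX-2 HET hippocampus, against 0.134, 0.0357 and 0.292 in COX-2-/- and -0.0217, 0.000138 and 0.0894 in COX-2 WT hippocampus. It was 0.238 above the midpoint (SE 0.0545, limma adjusted p = 0.0373), though the highest COX-2-/- array lay among the HET arrays, and with the correction for place it was 0.184 above it (adjusted p = 0.0565). The call was lost without any 1 of 7 of the 9 arrays, all but COX-2-/- replicate 3 and COX-2 WT replicate 3. Leaving out each array in turn gave differences of 0.199 to 0.272, and the limma adjusted p ran from 0.00806 to 0.199 over 18 alternatives. The other Syncrip probes did not go with it. The lead, BG078482, was 0.0607 above the midpoint (limma adjusted p = 0.564), and AW547151 was 0.106 below it (difference -0.106, limma adjusted p = 0.151).

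The values of Gltp in HET mice are a description, with no test, since they appear to have entered its choice. Its Z scores were 0.278, 0.151 and 0.323 in COX-2 HET hippocampus, so that every HET array lay above every COX-2-/- array (0.132, 0.0805 and 0.149) and every COX-2 WT array, an order found in 6.63% of all probes. The difference from the midpoint was 0.186. The probes around Gltp had a median of 0.0478.

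For the other leads the HET mean lay between those of COX-2-/- and WT mice, and 5 of 6 leads did so. Among all 329 probes called in COX-2-/- hippocampus this share was 66.3%, and among the 48 called in both lines 56.2%. Timeless had 0.368, 0.26 and 0.281 in HET mice, 0.000529 from the midpoint, with a 95% confidence interval of -0.0838 to 0.0849. Rbms1 had 0.47, 0.494 and 0.489 in HET mice, 0.0101 from the midpoint, and 2 of the 3 arrays were at the level of the highest COX-2 WT array. Syncrip had 0.399, 0.341 and 0.29 in HET mice, all above the COX-2 WT arrays and overlapping the COX-2-/- arrays. Entpd1 had 0.0831, 0.0563 and 0.0136 in HET mice, all below the COX-2 WT arrays and below 1 COX-2-/- array, -0.0273 from the midpoint. Thap11 had 0.0892, 0.138 and 0.11 in HET mice, all above the COX-2-/- arrays and 1 of them above the lowest COX-2 WT array, 0.0488 from the midpoint. None of these 5 deviations had an adjusted p under 0.564 in limma without a correction for place. The probes around Timeless and Rbms1 had medians of -0.0541 and -0.084 against the midpoint, and those around Syncrip, Entpd1 and Thap11 -0.0063 to 0.0189. With the correction for place the deviations were 0.0575 for Timeless, 0.0962 for Rbms1, 0.0278 for Syncrip, 0.00622 for Entpd1 and 0.0721 for Thap11. The lowest limma adjusted p was then 0.283, for Rbms1.

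By the study's rule, set against COX-2 WT mice, 2 of 12 member probes differed in COX-2 HET hippocampus, against 6.21% of all probes. They were Gltp (z ratio = 2.02) and Syncrip BG077814 (z ratio = 2.54). Arrays of HET and WT mice did not overlap for 7 of 12 probes, against 33.3% of all probes. Set against COX-2-/- mice, 1 of 12 met the rule, Syncrip BG077814 (z ratio = 1.52), against 5.02%, which it did not without COX-2-/- replicate 1 or 2 or HET replicate 2 or 3 (lowest z ratio 0.927, without COX-2-/- replicate 2), and 5 of 12 did not overlap, against 24.5%. These comparisons share their WT or null arrays with the choice of the genes, and for Gltp it appears also the HET arrays, so they are descriptions.

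**Figure D3:**
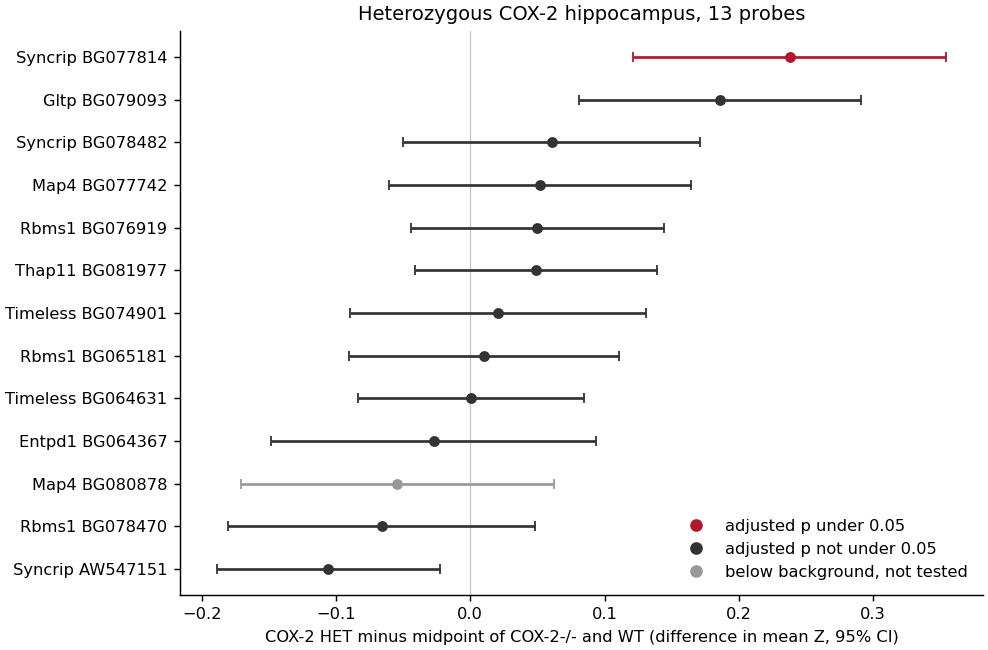
Difference in mean Z of COX-2 HET hippocampus from the midpoint of COX-2-/- and COX-2 WT hippocampus (x axis, SD units, bars give the 95% confidence interval of limma) for the 13 probes (y axis), with the Map4 probe below background in grey. The interval of Syncrip BG077814 lies above 0 with an adjusted p of 0.0373, and those of 10 of the other 12 probes include 0. That of Gltp also lies above 0 and is drawn as a description, since the HET arrays appear to have entered its choice.

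In cortex of COX-2-/- mice the differences of the leads from WT mice had the opposite sign to those in hippocampus, and none passed the adjusted test. Syncrip had 0.2, 0.291 and 0.0942 in COX-2-/- cortex, against 0.348, 0.345 and 0.455 in COX-2 WT cortex, a difference of -0.188 (SE 0.0645). Timeless had 0.322, 0.334 and 0.189 in COX-2-/- cortex, against 0.401, 0.401 and 0.42 in COX-2 WT cortex, a difference of -0.126 (SE 0.07). In both the null arrays lay below all WT arrays, which 2 of 12 member probes and 17.6% of all probes showed without regard to direction, whereas in hippocampus they lay above them. Such a reversal without overlap in either region was found in 2 of the 12 member probes above background, in 3.57% of all probes and in 46.8% of those called in both lines. Rbms1 had 0.331, 0.545 and 0.385 in COX-2-/- cortex, against 0.588, 0.522 and 0.64 in COX-2 WT cortex (difference -0.163, SE 0.0711), and 1 null array lay among the WT arrays. Gltp had 0.157, 0.174 and 0.024 in COX-2-/- cortex, against 0.167, 0.178 and 0.453 in COX-2 WT cortex (difference -0.148), where 1 WT array stood apart.

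Of the genes lower in null hippocampus, Thap11 had 0.0434, 0.0983 and 0.202 in COX-2-/- cortex, against -0.0223, 0.0503 and -0.139 in COX-2 WT cortex (difference 0.151, SE 0.0649). Entpd1 had 0.121, 0.191 and 0.161 in COX-2-/- cortex, against 0.166, 0.157 and -0.0538 in COX-2 WT cortex (difference 0.068), and 1 low WT array made most of this difference. In limma, over the 9 cortex arrays of the COX-2 line for the first part of the table, 0 of the 12 member probes passed the adjustment, as did 0.0% of all 8003 probes. The adjusted p was 0.457 for Syncrip, 0.504 for Thap11, 0.513 for Rbms1 and 0.587 for Timeless and Gltp. At an unadjusted p under 0.05, 5 of 12 member probes and 9.46% of all probes passed, among them the leads of Syncrip, Rbms1 and Thap11. By the study's rule 2 of 12 did, the leads of Syncrip (z ratio = -1.85) and Rbms1 (z ratio = -1.61), against 4.32% of all probes, a count that was 0 without COX-2-/- replicate 3 and 1 without COX-2-/- replicate 1 or COX-2 WT replicate 3.

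All 6 leads, and 12 of the 13 probes, had opposite signs in the 2 regions of COX-2-/- mice, the exception being Syncrip AW547151 with a cortex difference of 0.000346. The share was 85.7% among all 329 probes called in COX-2-/- hippocampus, 95.8% among the 48 called in both lines, 70.3% among all probes of the first part and 66.4% among all probes tested. The pattern by place in the table also ran the other way in cortex. The median of the probes around a lead in COX-2-/- minus WT cortex was -0.0653 for Timeless, -0.0734 for Syncrip, -0.0781 for Rbms1, -0.0563 for Gltp, 0.0427 for Entpd1 and 0.098 for Thap11, each with the sign of the lead. With the correction for place 0 member probes met the rule in cortex. The part of the place in the cortex differences was not tested, nor was the difference between the regions.

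**Figure D4:**
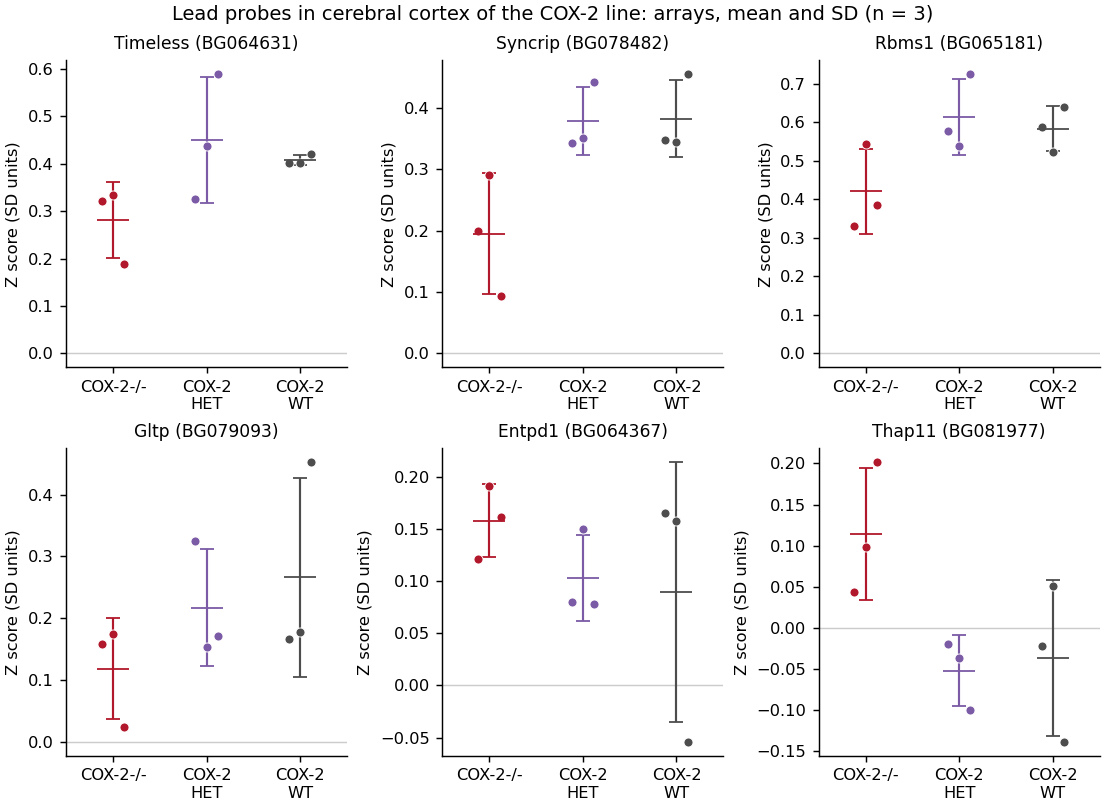
Z score of the 6 lead probes in cerebral cortex (y axis, SD units) for COX-2-/-, COX-2 HET and COX-2 WT mice, with points for arrays and dashes with bars for the mean ± SD of 3 arrays. Syncrip and Timeless are the leads whose COX-2-/- arrays all lie below the WT arrays, and HET arrays overlap WT arrays in every panel.

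**Figure D5:**
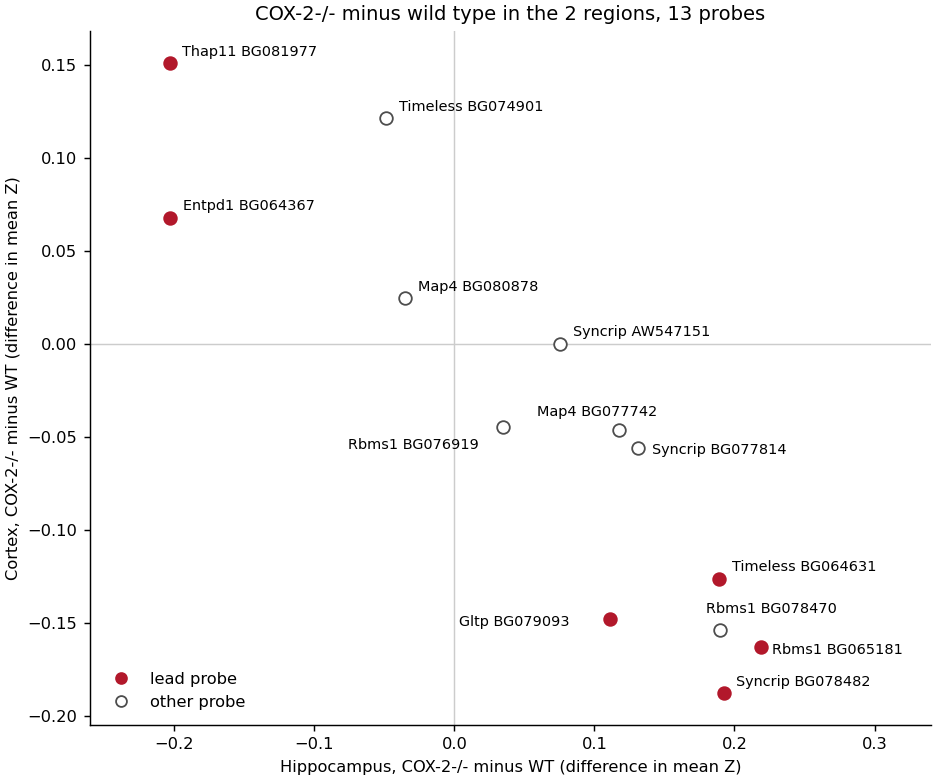
Difference in mean Z of COX-2-/- minus COX-2 WT mice in hippocampus (x axis, SD units) and in cerebral cortex (y axis, SD units) for the 13 probes, with filled circles for the 6 lead probes. All leads lie in the quadrants of opposite sign, and Syncrip AW547151 lies at 0.000346 on the y axis.

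HET cortex was set against WT cortex in the same way. In this comparison 11 member probes were above background, and 0 passed limma with the adjustment and 0 at an unadjusted p under 0.05, against 7.3% of all probes. Timeless had 0.325, 0.437 and 0.588 in COX-2 HET cortex, wider than the 0.401 to 0.42 of COX-2 WT cortex, a difference of 0.0425 with a 95% interval of -0.108 to 0.193. Syncrip had 0.342, 0.351 and 0.443 in HET cortex, a difference of -0.0043 from WT cortex. Rbms1 had 0.577, 0.537 and 0.725 in HET cortex, a difference of 0.0296. In both the HET arrays overlapped the WT arrays, with 1 Syncrip array of HET cortex just under the lowest WT array and 1 Rbms1 array above the highest. Over the 11 probes the differences ran from -0.0493 for Gltp to 0.0956 for Map4 BG077742, and 0 met the study's rule, against 3.26% of all probes. HET and WT arrays did not overlap for 1 of the 11, Syncrip AW547151, against 16.3% of all probes. Thap11, with -0.0197, -0.0363 and -0.101 in HET cortex, was below background there and was not tested. For Syncrip, all 3 arrays of COX-2-/- cortex and 1 of 3 arrays of HET cortex lay under the lowest WT array, and the difference between COX-2-/- and HET cortex was not tested.

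In the COX-1 line, cortex values exist for the second Timeless probe and for Syncrip AW547151. Timeless BG074901 had 0.203, 0.211 and 0.177 in COX-1-/- cortex, against 0.0875, 0.183 and 0.206 in COX-1 WT cortex (difference 0.0381, SE 0.0534, limma adjusted p = 0.776). Syncrip AW547151 had 0.489, 0.353 and 0.604 in COX-1-/- cortex, against 0.537, 0.462 and 0.541 in COX-1 WT cortex (difference -0.0313, SE 0.0518, limma adjusted p = 0.814). The arrays overlapped for both (18.7% of all probes did not overlap), and 0 of 2 passed, against 0.0488% of the 4102 probes tested. By the study's rule 0 of 2 were called, against 2.71%.

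Further contrasts leave the null and WT differences out. The lines differed in hippocampus, averaged over null and WT mice, at 12.4% of all probes in limma, and 1 of the 12 member probes passed. Timeless BG074901 was 0.155 higher in the COX-2 line than in the COX-1 line (SE 0.042, limma adjusted p = 0.0274), with 0.103, 0.184 and 0.157 in COX-2-/- and 0.12, 0.303 and 0.167 in COX-2 WT mice, against 0.0478, 0.0336 and 0.119 in COX-1-/- and -0.0857, -0.109 and 0.0971 in COX-1 WT mice. With the correction for place it was 0.0962 higher (limma adjusted p = 0.2, with a range of 0.00975 to 0.6 over 21 alternatives). The call was lost without any 1 of 6 of the 12 arrays, which were COX-1-/- replicates 1 and 2, COX-1 WT replicates 1 and 2, COX-2-/- replicate 2 and COX-2 WT replicate 2. Leaving out each array in turn gave differences of 0.129 to 0.188. The lead of Timeless was 0.0969 higher in the COX-2 line (limma adjusted p = 0.0646) and Thap11 was 0.0949 lower (difference -0.0949, limma adjusted p = 0.0869).

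Between the regions of the COX-2 line, hippocampus and cortex averaged over genotypes differed at 11.6% of all probes in limma, but at 0 of the 12 member probes, and 2 of these had an unadjusted p under 0.05, against 26.1% of all probes. Those were Timeless, at -0.0771 in hippocampus relative to cortex (limma adjusted p = 0.151), and Thap11, at 0.0714 (limma adjusted p = 0.174). In the COX-1 line 39.3% of all probes of the second part differed between the regions. Timeless BG074901 was lower in hippocampus by this test (difference -0.161, SE 0.0397, limma adjusted p = 0.00226), and with the correction for place it was -0.0891 with a limma adjusted p of 0.112 (0.000369 to 0.418 over 20 alternatives), whereas Syncrip AW547151 was at -0.0104 (limma adjusted p = 0.826).

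Taking the 8 groups in order of their means, most neighbours overlapped. Timeless had means of 0.45 in HET cortex, 0.408 in COX-2 WT cortex, 0.397 in COX-2-/- hippocampus, 0.317 in COX-1-/- hippocampus, 0.303 in HET hippocampus, 0.281 in COX-2-/- cortex, 0.208 in COX-2 WT hippocampus and 0.0937 in COX-1 WT hippocampus. Of the 7 pairs of neighbours 6 overlapped, and only the step between the hippocampal WT groups of the lines did not. The Syncrip lead ran from 0.383 in COX-2 WT cortex to 0.126 in COX-1 WT hippocampus with all 7 pairs overlapping. The Rbms1 lead ran from 0.618 in COX-1-/- hippocampus to 0.365 in COX-2 WT hippocampus, and HET hippocampus, with an SD of 0.0123, stood apart from its neighbours on either side. For Gltp, Entpd1 and Thap11 all 7 pairs overlapped. Gltp ran from 0.266 in COX-2 WT cortex to -0.0972 in COX-1 WT hippocampus, Entpd1 from 0.232 in COX-1 WT hippocampus to -0.0232 in COX-2-/- hippocampus, and Thap11 from 0.264 in COX-1 WT hippocampus to -0.0522 in HET cortex. A hippocampal WT group stood at an end of the order for each lead, which the choice of the genes favours.

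The probes most like each lead over the 24 arrays were named from 4544 candidates with 1 gene symbol and a mean Z above 0. For Timeless they were Pcna (r = 0.887), Foxo3 (r = 0.88) and Fcho2 (r = 0.88), and for Syncrip Dph6 (r = 0.875), Clta (r = 0.868) and Rps15a (r = 0.846). For Rbms1 they were Zfp809 (r = 0.8), Ruvbl1 (r = 0.783) and Rrp15 (r = 0.778), and for Gltp Tmem189 (r = 0.88), Brd1 (r = 0.864) and Bmp2k (r = 0.844). For Entpd1 they were Kifap3 (r = 0.821), 1110004F10Rik (r = 0.791) and Nr2c2ap (r = 0.78), and for Thap11 Snph (r = 0.839), As3mt (r = 0.819) and Bcl10 (r = 0.818). These points share the arrays and the place in the table. Of the 18 probes, 17 lie within 70 places of their lead in the block, where the largest distance possible is 264.

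Lists of genes with related roles give the surroundings of the 7 genes. The values of the list probes are given without the correction for place. With it, the rule's count over all probes in COX-2-/- cortex was 210, against 346. The part of the place in the differences of the list probes was not tested. In the cortex comparisons 0 list probes passed limma with the adjustment. The study's rule in COX-2-/- cortex took 4.32% of all probes, 2.69% as higher and 1.64% as lower. By it, 3 of 27 probes of hnRNP and other mRNA-localising proteins, the family of Syncrip, were higher and 0 lower, Hnrnpc (z ratio = 1.55), Hnrnpdl (z ratio = 1.56) and Hnrnpul1 (z ratio = 1.68). The median of that list was -0.0183, against -0.0083 over all probes. Of the 9 probes of microtubule regulators, the partners of Map4, 1 was higher, BG067558 of Mapre1 (EB1), which tracks microtubule ends. It had 0.635 ± 0.0886 in COX-2-/- cortex and 0.443 ± 0.0699 in COX-2 WT cortex (SD, n = 3 each). Another Mapre1 probe, BG073832, was not among those called in cortex. In hippocampus, between the COX-2 and COX-1 lines, these probes differed in opposite directions (BG067558 0.228, BG073832 -0.18). Of 6 probes of prostanoid synthesis and receptor genes 1 was lower, Ptgfrn, a prostaglandin F2 receptor inhibitor, with 0.369 ± 0.101 in COX-2-/- cortex and 0.569 ± 0.031 in COX-2 WT cortex. The lists of clock and replication partners of Timeless (8 probes), of glycolipid genes (7 probes), of extracellular nucleotide signalling (7 probes) and of THAP and HCF-1 partners (13 probes) had 0. In COX-1-/- cortex Clasp1 was higher and Map1lc3a and Rbbp5 were lower by the rule, against 2.71% of all probes.

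In COX-2 HET hippocampus against the midpoint, limma called 5 list probes, against 2.63% of all probes, 1.29% higher and 1.33% lower. The microtubule list had 2 lower of 10, Kif5b, a kinesin heavy chain (difference -0.239, SE 0.0453), and Stmn3, a stathmin that destabilises microtubules (difference -0.216, SE 0.048). Stau1, which like Syncrip carries mRNA into dendrites, was 1 of 28 in its list, at 0.169. Cers2, a ceramide synthase, was 1 of 8 glycolipid probes, at 0.192, and Entpd7, an intracellular relative of Entpd1, was 1 of 8 nucleotide probes, at 0.171. The lists of Timeless (8 probes), Thap11 (12 probes) and prostanoid genes (6 probes) had 0. The list medians lay between -0.0213 and 0.0439, against 0.00961 over all probes. By the rule against COX-2 WT mice, Panx1, a channel that releases ATP, was higher in HET hippocampus (1.51 ± 0.0789, against 1.22 ± 0.024 in COX-2 WT hippocampus). So were Cers2, Entpd7 and Hnrnpu, and Kif5b, Stmn3, Hnrnpul1, Wdhd1 and Sin3a were lower. Of all probes 6.21% met the rule in this comparison, 3.87% as higher and 2.34% as lower.

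Marker lists of other cell types were thin on this array. Neuron markers had 4 probes, 3 of them above background, whose summed Z was 1.36 to 1.59 in HET hippocampus, against 1.65 to 1.90 in COX-2-/- and 1.71 to 1.94 in COX-2 WT hippocampus. Microglia markers, 2 of 4 above background, summed to 0.832 to 0.854 in HET hippocampus, against 0.698 to 0.745 in COX-2-/- and 0.704 to 0.713 in COX-2 WT hippocampus. Both sets of HET values lay apart from those of the other COX-2 groups, and beside them stand the HET values of Gltp and Syncrip BG077814. In cortex the microglia markers lay the other way, with 0.616 to 0.68 in HET cortex, against 0.691 to 0.773 in COX-2-/- and 0.685 to 0.749 in COX-2 WT cortex. In COX-1-/- cortex the microglia marker Fcer1g was lower by the rule, with 0.118 ± 0.216 in COX-1-/- and 0.514 ± 0.13 in COX-1 WT cortex (SD, n = 3 each, z ratio = -3.57), and so was Calb1 (z ratio = -1.91). The part of these markers in the results of the members was not tested. Of the region markers, the cerebral cortex list had 0 of 4 probes above background, and the hippocampus list had only Calb1, with 2 of 8 probes. These summed to 0.642 to 0.649 in HET, 0.25 to 0.541 in COX-2-/- and -0.0374 to 0.198 in COX-2 WT hippocampus. In cortex they summed to 0.161 to 0.225 in HET, 0.278 to 0.375 in COX-2-/- and 0.363 to 0.512 in COX-2 WT mice. In WT mice they were thus lower in hippocampus than in cortex, so they cannot be read as an amount of hippocampal tissue. Ttr, the choroid plexus transthyretin, ranged over 0.247 to 2.17 in COX-2-/-, 0.246 to 1.9 in HET and 0.402 to 2.36 in COX-2 WT hippocampus. In cortex it ranged over 0.223 to 0.447 in COX-2-/-, 0.186 to 1.59 in HET and 0.17 to 0.215 in COX-2 WT mice. In hippocampus the arrays of each COX-2 group thus spread over nearly the same range. Those of the COX-1 groups did not, with 0.326 to 2.36 in COX-1-/- and 1.29 to 1.89 in COX-1 WT hippocampus.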

How the data were processed

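RNA of hippocampus and cerebral cortex of COX-1 and COX-2 line mice 12 weeks old was measured on custom nylon membranes with cDNA probes, 3 arrays in each of 10 groups. The authors made radioactive cDNA from 5 µg of total RNA, read the membranes on a phosphoimager with the ArrayPro software and computed Z scores of the intensities in a spreadsheet macro. The deposited values are these scores, and each part of the table has its own mean and SD. Array medians were -0.0721 to -0.0419 and replicates of a group correlated with r of 0.984 to 0.993. Of all probes, 9663 carry 1 symbol, 436 several and 6797 none. No depth applies, and 3 arrays a group limit the precision. An exact permutation test of 3 arrays against 3 cannot go below 0.1 and was not used.

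Every probe annotated to the 7 genes was taken. A group means model was fitted in limma 3.58.1 (R 4.3.3), with Benjamini-Hochberg adjustment over all probes whose mean Z was above 0 in the compared arrays. Copied COX-1 cortex values of the first part were left out of every fit. List members were named where they passed limma or the study's rule in a cortex or HET comparison, and for likeness the 3 probes with the highest r. The genes, the lists and the tests were chosen with earlier results of these data known. The script was tested on simulated data. Software was Python 3.11.15 with numpy 2.4.6, pandas 2.3.3, scipy 1.17.1 and matplotlib 3.10.9 (figures), and the R package data.table (1.17.8).

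Alternatives were median centring, quantile normalization, subtraction of a running median over 201 rows, no filter, a mean Z above 0.5, other sets of arrays in the fit, an intensity trend, a replicate block, a z ratio beyond 2, the SD of differences within each part, unadjusted p values and leaving out each array in turn. The correction for place (10 rows on each side, 16 blocks) was added after the data were seen.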

Additional observations from a re-analysis of the deposited data

Results flagged for a closer look

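For Syncrip (BG078482) the arrays of COX-2-/- and COX-2 WT mice did not overlap in either region and moved in opposite directions, at -0.188 in cortex and 0.192 in hippocampus. For Timeless (BG064631) the same held, at -0.126 in cortex and 0.189 in hippocampus. The difference between the regions was not tested in either case. The probes around each lead in the table had medians of -0.0734 in cortex and 0.109 in hippocampus for Syncrip, and of -0.0653 in cortex and 0.118 in hippocampus for Timeless.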

How the results depend on the processing

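Over single probes, 850 values under an alternative kept their direction and side of the threshold, 106 lost the call, 8 gained one and 39 changed sign. Of the counts, 186 stayed within 1.5 times and 65 did not. The cortex calls of COX-2-/- mice were 0 in limma, 5 at an unadjusted p, 2 by the study's rule and 1 by that rule with the SD within each part. That rule count of 2 was 0 with the correction for place or a z ratio beyond 2, 1 with a mean Z above 0.5 or the SD within each part, and 0 to 3 without 1 array. The HET count of 1 against the midpoint in hippocampus was 0 with the correction for place, a mean Z above 0.5 or only the groups compared, 2 with an intensity trend or the replicate block, 3 unadjusted and 0 to 2 without 1 array, and Syncrip BG077814 then had 0.199 to 0.272. The count of 1 between the lines was 3 with the row order correction or no filter, 0 with a mean Z above 0.5 or only the groups compared, 2 with all arrays, an intensity trend or the replicate block, 5 unadjusted and 0 to 2 without 1 array, where Timeless BG074901 had 0.129 to 0.188. The region count of 0 in the COX-2 line was 1 with the row order correction or no filter and 2 unadjusted, and 0 without any 1 array. That of 1 in the COX-1 line was 0 with the row order correction, the correction for place or a mean Z above 0.5, and 1 without any 1 array.

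The study's rule in hippocampus gave 7 members in COX-1-/- mice, 3 with the correction for place, 1 with a mean Z above 0.5, 2 with a z ratio beyond 2 and 3 to 7 without 1 array. In COX-2-/- mice it gave 6, against 0, 0, 1 and 3 to 7. Member probes called in both lines were 6, of 5 genes. They were 3 with the row order correction and 5 with the SD within each part. With the correction for place or a z ratio beyond 2 they were 0. HET against WT gave 2, which was 1 with the row order correction or the correction for place, 0 with a mean Z above 0.5 and 2 to 3 without 1 array. HET against COX-2-/- gave 1, which was 0 with quantile normalization, a z ratio beyond 2, a mean Z above 0.5 or the SD within each part, 3 with the row order correction and 0 to 1 without 1 array.

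Some values changed sign. In HET minus WT cortex they were Syncrip (0.0014, quantile normalization), Thap11 (0.0254, row order), Rbms1 (-0.012, row order, and -0.0224, place) and Timeless (-0.0132, place). Against the midpoint they were Timeless (-0.000556 median centring, -0.00426 quantile normalization, -0.00905 row order), Rbms1 (-0.00294 quantile normalization, -0.0198 row order) and Entpd1 (0.00622, place). Between regions Syncrip was 0.00484 (row order) and 0.0164 (place). The z ratios of Map4 BG077742 in COX-1-/- mice were -0.329 (row order) and -0.424 (place), against 0.246 in the values as deposited. In COX-2-/- mice they were -0.00251 and -0.337, against 1.12. The z ratio of Gltp in COX-2-/- mice was -0.512 (place), against 1.06. Without 1 array, Entpd1 in COX-2-/- cortex ran from -0.00373 to 0.106. In HET cortex Timeless ran from -0.0267 to 0.105, Entpd1 from -0.0587 to 0.051, Thap11 from -0.0662 to 0.0282, Gltp from -0.104 to 0.0441, Rbms1 from -0.0264 to 0.0675 and Syncrip from -0.0365 to 0.032. Against the midpoint Timeless ran from -0.032 to 0.022, Entpd1 from -0.044 to 0.00491 and Rbms1 from -0.0128 to 0.0422, and the z ratio of Map4 BG077742 in COX-1-/- mice ran from -0.0348 to 0.42. The causes were not tested.

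Over all probes, the HET count of 211 was 373 with no filter, 97 with only the groups compared, 384 with all arrays, 409 with a trend and 1573 unadjusted. The line count of 993 was 3838 with no filter, 219 with a mean Z above 0.5 and 2222 unadjusted. The region count of 931 was 1537, 604 and 2093 in the COX-2 line, and that of 1622 in the COX-1 line was 3534 with no filter and 744 with a mean Z above 0.5. The COX-1 cortex count of 2 ran from 0 to 77 over the other limma settings with adjustment and was 609 unadjusted. The rule's count in COX-2-/- hippocampus of 329 was 178 with the row order correction and 186 with the correction for place, 1063 with no filter, 146 with a mean Z above 0.5 and 69 with a z ratio beyond 2. In COX-1-/- hippocampus 387 became 1242, 165 and 111 under the last 3 settings, and in COX-2-/- cortex 346 became 931, 187 and 97, and 210 with the correction for place.

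Deviations of same-numbered arrays from their group means had r of -0.0813 to 0.211, over 0.1 in 29 of 135 pairs (second part of the table). Between hippocampus and cortex of a group, r was 0.211, -0.00193 and 0.177 in COX-2-/- mice for numbers 1, 2 and 3. In COX-1-/- mice it was 0.124, 0.165 and -0.0378, and in the WT and HET groups -0.0366 to 0.0553. Arrays of unlike number were not compared, so pairing of the arrays by number was not settled. The limma fits, those between regions too, took the arrays as independent, apart from the replicate block. The replicate block moved the HET count against the midpoint and the line count to 2 and no other member count by over 1.5 times.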
